A study of Sus scrofa with 32 samples.

Results

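Granzymes, perforin and granulysin, the proteins that cytotoxic lymphocytes load into their granules, were followed across lymphocytes of pig ileum and blood in single-cell RNA-seq counts. The members were listed by symbol as GZMB, GZMK, GZMM, GZMH, PRF1 and GNLY, and 5 of these 6 symbols were among the 25880 gene entries of the count matrices. GZMH was not named there and has no value below. Cells came from 2 mixed-breed pigs of 7 weeks, pig 1 labelled female and pig 2 male, with no treatment in the labels. From each pig, ileum containing Peyer's patches (PP), ileum lacking them (NoPP), a whole cross-section (WholeIleum) and peripheral blood mononuclear cells (PBMC) were each made into 1 droplet library, giving 6 ileal and 2 blood libraries. Each library was read in 4 sequencing runs that the files hold summed. The design compares ileum with blood, ileum with and without Peyer's patches, and kinds of lymphocyte with each other. With 2 pigs, a single value compared 2 against 2 could not go below an exact permutation p of 0.333, and the tests below borrow their estimate of spread from all genes.

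Cytotoxic T cells, natural killer (NK) cells and related innate lymphoid cells (ILC) kill by releasing the contents of granules at the contact with a target. Perforin makes pores in the target's membrane, granzymes are serine proteases that pass through to cleave proteins inside it, and granulysin is a saposin-like protein that damages the membranes of microbes and infected cells. In the gut, lymphocytes within the epithelium are known for storing such granule proteins in quantity, and pigs carry many γδ T cells, which divide into CD2+ and CD2- kinds.

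GZMB encodes the granzyme that cleaves after aspartate and triggers apoptosis. In the Sscrofa11.1 RefSeq annotation it lies on chromosome 7 from 74705499 to 74708781, and GZMH, a close relative, lies 15019 bp away, from 74723800 to 74727396. The entry the matrices call GZMB has the identifier ENSSSCG00000001978, which the supplied name table calls GZMH. That table gives GZMB to ENSSSCG00000059880, an identifier that is not in the matrices, so values printed for GZMB may belong to either of these neighbouring genes or to reads of both. GZMK, a tryptase-like granzyme (ENSSSCG00000016901), lies on chromosome 16 from 34217339 to 34226139, 36356 bp from the nearer of the 2 entries for GZMA. GZMM, a granzyme that cleaves after methionine or leucine (ENSSSCG00000032810), lies on chromosome 2 from 77753817 to 77761436. PRF1, perforin (ENSSSCG00000010271), lies on chromosome 14 from 73515306 to 73520256. GNLY, granulysin (ENSSSCG00000008228), lies on chromosome 3 from 59067327 to 59072034.

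After quality control 48594 cells remained, 3770 to 7700 per library, with median depths of 2575 to 3584 unique molecular identifiers (UMIs, each a counted molecule) per cell. Library totals ran from 21134542 to 40111934 UMIs over all barcodes. Scrublet marked 2.72% to 3.82% of the cells of a library as doublets, and these were kept unless stated. Pairs of libraries shared 21 to 79 cell barcodes, against 20.0 to 76.6 for random draws from the barcode list. One library went against its label. In the library labelled WholeIleum1, from the pig labelled female, 45.6% of cells had a UMI of a Y-linked gene. That share was 0.0545% in PP1, 0.0256% in NoPP1 and 0 of 6443 cells in PBMC1, and 37.0% to 47.8% in the libraries of pig 2. The library labelled WholeIleum1 was kept in the ileal sum of pig 1, and each called ileal difference of a member is also given without it. Levels, shares of cells and proportions per pig are given only with it kept.

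Cells were sorted in silico by whether they held at least 1 UMI of CD3E (a T cell receptor signalling chain), CD8B (CD8 αβ T cells), TRDC (the δ chain constant region), CD2 and CD79B (a B cell receptor chain). Outside the B lineage the gates held 3616 CD3E+ CD8B+ cells, 3627 CD3E+ TRDC+ CD2+ cells and 1546 CD3E+ TRDC+ CD2- cells. They also held 10256 CD3E+ CD8B- TRDC- cells and 3987 CD3E- CD2+ cells. The last gate carried markers of cells other than lymphocytes too, as given below. The 14971 CD79B+ cells served as the background. Activated B cells can make granzyme B, so this background is a measured level and not a zero. Another 7040 cells held a combination in no gate and 3551 held none of the gate genes. In sparse counts 0 UMIs does not show that a gene was silent, so the gates are enriched rather than pure.

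Markers were summed over the CD3E- CD2+ gate. The NK and group 1 ILC markers were KLRB1, KLRK1, NCR1, TYROBP, FCER1G, IL2RB, TBX21 and EOMES. Their sum was at 2098 to 4206 CPM (the count scaled to a common library total) over the 6 ileal libraries. In the 2 blood libraries it was at 4308 to 4437 CPM. Blood cells with none of the gate genes stood at 4457 and 4720 CPM on this list, with monocyte and macrophage markers at 9312 and 5866 CPM. The sum alone therefore does not separate NK cells and ILC from other cells. Other T cell markers (such as CD3D and CD3G) reached 1069 to 3422 CPM in ileum and 449 to 728 CPM in blood. Group 3 ILC markers ran from 229 to 2812 CPM in ileum and from 6.90 to 14.2 CPM in blood, where IL22 was at 0. Monocyte and macrophage markers ran from 416 to 5031 CPM in ileum and from 3471 to 3924 CPM in blood. Epithelial markers ran from 251 to 2134 CPM in ileum and from 0.422 to 1.38 CPM in blood, where EPCAM, KRT8 and VIL1 were at 0. The gate is therefore named by its genes only, and the part of these other cells in the results was not tested.

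GZMB and GNLY were the abundant members and GZMK, GZMM and PRF1 the sparse ones. UMIs were counted at transcript ends and do not grow with gene length. Members differ in transcript and read placement, so their levels are best compared between cells and not between genes. Levels are given as CPM of the summed counts of a gate in each pig. GZMB in CD3E- CD2+ cells of ileum stood at 15107 CPM in pig 1 and 20550.5 CPM in pig 2. With the library labelled WholeIleum1 kept, these were its highest levels in any gate. Of the 728 such cells of pig 1, 447 came from the library labelled WholeIleum1, whose own level is given with the dissections below. In PP1 this gate lay below CD3E+ TRDC+ CD2+ cells and in NoPP1 above them, as the values with the dissections show. Pig 1's first rank is therefore not shown without that library, and its rank over PP1 and NoPP1 together was not computed. In ileal CD3E+ CD8B+ cells GZMB stood at 9745 and 9706 CPM, nearly level between the pigs. The CD79B+ background was 147 and 125 CPM in ileum and 37.8 and 52.4 CPM in blood, so it too was higher in ileum.

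GNLY was likewise highest in CD3E- CD2+ cells, in both tissues, with the library labelled WholeIleum1 kept. It stood there at 20174 CPM in pig 1 and 28096 CPM in pig 2 in ileum, and at 17437 and 14247 CPM in blood. The order of its other levels differed between the tissues. In blood CD3E+ CD8B+ cells held 9382 and 12294 CPM, against 2924 and 2590 CPM in ileum, where these cells were at or near the foot of the T cell gates. Background was 132 and 127 CPM in ileal CD79B+ cells and 486 and 432 CPM in those of blood.

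PRF1, whose product opens the way for granzymes, differed less between the ileal gates than GNLY did. Its ileal levels ran from 148 CPM in CD3E+ CD8B- TRDC- cells of pig 1 to 369 CPM in CD3E- CD2+ cells of pig 2. In blood it ran from 29.8 CPM in CD3E+ TRDC+ CD2- cells to 308 CPM in CD3E+ CD8B+ cells, both in pig 2. CD79B+ cells held 3.06 to 3.72 CPM.

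GZMK was the member most tied to CD3E+ CD8B+ cells, with 181 CPM in pig 1 and 253 CPM in pig 2 in ileum and 80.4 and 92.0 CPM in blood. CD3E+ CD8B- TRDC- cells, which hold the CD4 T cells among others, came next with 93.9 and 133 CPM in ileum. Both γδ gates lay at 1.10 to 21.6 CPM over the 2 tissues, and CD79B+ cells at 0.387 to 2.16 CPM.

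GZMM had its highest level in blood, in CD3E+ CD8B+ cells of pig 1. CD3E+ CD8B+ cells held 102 CPM in pig 1 and 91.5 CPM in pig 2 in ileum, and 163 and 90.4 CPM in blood. CD3E- CD2+ cells held 16.7 and 4.53 CPM in ileum and 120 and 47.6 CPM in blood, so the tissues did not overlap in this gate. In every one of the 5 gates of blood, pig 1 was above pig 2, as in the plot of levels by gate.

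**Figure D1:**
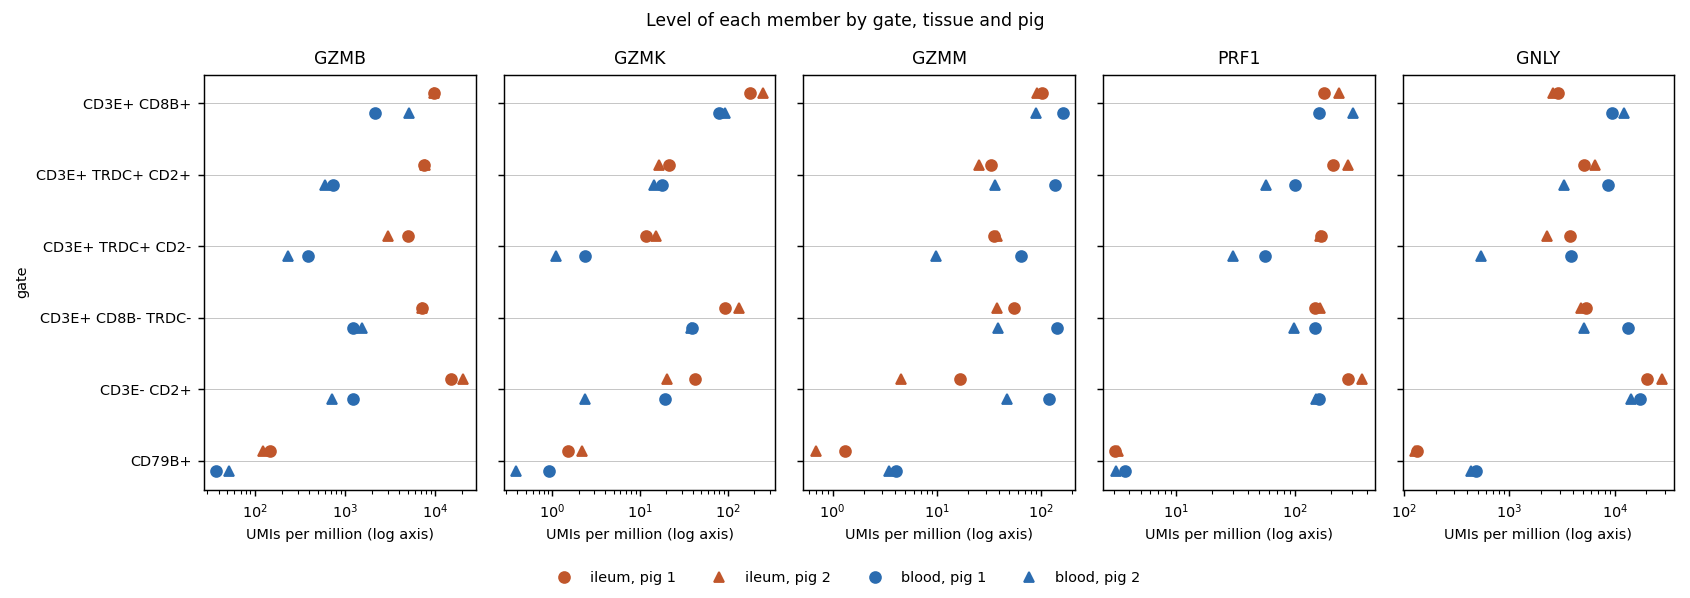
Levels of the 5 members in CPM on a horizontal log axis, by gate along the vertical axis, with 1 point per pig and tissue. GZMB lies higher in ileum than in blood in every gate, the CD79B+ background included. GNLY in CD3E+ CD8B+ cells lies higher in blood, at 9382 and 12294 CPM against 2924 and 2590 CPM.

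Across the 24 sums of gate, tissue and pig, the genes whose log2 CPM followed each member most closely were listed. This is a description, since the sums share libraries and cell types. The CD79B+ background was among the sums, and its part in each r was not tested. For GZMB the genes were ENSSSCG00000016903, an entry for GZMA (Pearson r = 0.971), and MFSD10 (r = 0.955). For PRF1 they were NKG7, a granule membrane protein (r = 0.975), and CST7, an inhibitor of granule cathepsins (r = 0.973). For GNLY they were ADGRG1, an adhesion receptor of cytotoxic cells (r = 0.968), and FASLG, the death ligand (r = 0.958). For GZMK they were ENSSSCG00000033721 (r = 0.915) and ICOS, a T cell costimulator (r = 0.905), and for GZMM they were CD8A (r = 0.906) and LSP1 (r = 0.903). Among the members, PRF1 lay nearer to GZMB (r = 0.900) and GNLY (r = 0.884) than these were to each other (r = 0.698).

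Ileum and blood were then compared within each gate. GZMB was higher in ileum in all 5 gates, and it was the only member called in all of them. Over 10840 genes tested with edgeR's quasi-likelihood test, 11.3% were called at an adjusted p below 0.05 in CD3E+ CD8B+ cells, 14.6% in CD3E+ TRDC+ CD2+, 11.6% in CD3E+ TRDC+ CD2-, 21.4% in CD3E+ CD8B- TRDC- and 31.4% in CD3E- CD2+ cells. Of the 5 members, 1, 2, 2, 2 and 4 were called in these gates. Unless another setting is named, a call is one of this fit, with low counts filtered and no block. Tissue, dissociation and library preparation cannot be told apart in this comparison.

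Naive T cell markers moved with tissue beside these results. The sum of CCR7, LEF1, S1PR1, KLF2 and TCF7, all detected in every library and gate, ran from 116 to 332 CPM over the ileal libraries and from 722 to 730.3 CPM in blood in CD3E+ CD8B+ cells. It ran from 156 to 328 CPM against 636 to 1189 CPM in CD3E+ TRDC+ CD2+ cells and from 164 to 512 CPM against 1009 to 1232 CPM in CD3E+ TRDC+ CD2- cells. In the other T cell gate it ran from 142 to 503 CPM against 779 to 1159 CPM, and in CD3E- CD2+ cells from 68.6 to 367 CPM against 373 to 556 CPM. Blood lay above ileum in all 5 gates, and the part of these cell states in the results was not tested.

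In CD3E- CD2+ cells GZMB was at 1232 CPM in pig 1 and 719 CPM in pig 2 in blood, below both ileal values above. It rose in ileum by 4.10 ± 0.39 (log2, SE; 17.1-fold; adjusted p = 2.73e-06 in edgeR). In CD3E+ TRDC+ CD2+ cells ileum held 7429 and 7674 CPM and blood 748 and 610 CPM, an 11.6-fold rise (3.53 ± 0.38; adjusted p = 1.97e-05 in edgeR). In CD3E+ TRDC+ CD2- cells the values were 4960 and 3022 CPM in ileum and 389 and 235 CPM in blood, a 13.3-fold rise (3.73 ± 0.39; adjusted p = 1.53e-05 in edgeR). The pigs lay close together beside these gaps. A γδ T cell with no CD2 UMI may still express CD2. Between the γδ gates, CD2+ against CD2-, 23 genes were called in ileum and 139 in blood. The part of such cells in any CD3E+ TRDC+ CD2- value was not tested. CD3E+ CD8B- TRDC- cells held 7189 and 7177 CPM in ileum and 1231 and 1533 CPM in blood, a 5.14-fold rise (2.36 ± 0.36; adjusted p = 0.000263 in edgeR).

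The smallest GZMB rise was in CD3E+ CD8B+ cells, where blood held 2143 CPM in pig 1 and 5118 CPM in pig 2, so that the rise was 2.67-fold (1.42 ± 0.35; adjusted p = 0.0157 in edgeR). This call was lost without the library labelled WholeIleum1 (1.41; adjusted p = 0.0744 in edgeR) and with pig 2 alone (0.91; adjusted p = 0.306 in edgeR). The other 4 GZMB calls held without that library, with log2 differences of 3.74 in CD3E- CD2+ cells, 3.55 and 3.84 in the γδ gates and 2.39 in CD3E+ CD8B- TRDC- cells. Those 4 also held under every alternative run.

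PRF1 rose in ileum in 3 gates. CD3E+ TRDC+ CD2+ cells held 209 and 279 CPM in ileum against 100 and 56.6 CPM in blood (1.67 ± 0.33; 3.18-fold; adjusted p = 0.00296 in edgeR). CD3E+ TRDC+ CD2- cells held 166 and 163 CPM against 56.1 and 29.8 CPM (2.00 ± 0.36; 4.00-fold; adjusted p = 0.00179 in edgeR). Neither pair of tissues overlapped. The values in CD3E- CD2+ cells were 276 and 369 CPM against 160 and 150 CPM (0.96 ± 0.31; 1.95-fold; adjusted p = 0.0267 in edgeR), and this call was lost without the library labelled WholeIleum1 (0.63; adjusted p = 0.337 in edgeR). Both γδ calls held without it (adjusted p = 0.0331 and 0.0231 in edgeR) and were lost with pig 1 alone (1.10 and 1.57; adjusted p = 0.148 and 0.11 in edgeR). In CD3E+ CD8B+ cells PRF1 overlapped between the tissues, with 174 and 235 CPM in ileum and 158 and 308 CPM in blood (adjusted p = 0.734 in edgeR).

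GZMK rose in ileum in CD3E+ CD8B- TRDC- cells, where blood held 38.9 and 37.9 CPM (1.54 ± 0.48; 2.92-fold; adjusted p = 0.0292 in edgeR). It also rose in CD3E- CD2+ cells, with 42.8 and 20.1 CPM in ileum against 19.3 and 2.39 CPM in blood (1.73 ± 0.59; 3.33-fold; adjusted p = 0.034 in edgeR). Pig 2's ileal value there was barely above pig 1's blood value. Both calls were lost without the library labelled WholeIleum1 (1.44 and 1.77; adjusted p = 0.0812 and 0.0619 in edgeR) and with cells of at least 2500 UMIs (0.80 and 0.73). In CD3E+ CD8B+ cells the difference of 1.32 ± 0.47 had an adjusted p of 0.086, and of 0.0329 once the pig was a block in edgeR. In CD3E+ TRDC+ CD2- cells the difference of 2.98 ± 1.20 was not called (adjusted p = 0.127 in edgeR). It was called by DESeq2 (3.00; adjusted p = 0.036) and in edgeR with no filter (2.99; adjusted p = 0.0034). In blood, however, GZMK made up only 0.0548% of the 3648 member UMIs of this gate in pig 1. In pig 2 it made up 0.135% of 740. The blood side therefore lay near the floor, and the size of this difference rests on very few UMIs.

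GZMM was called lower in ileum in 1 gate. Among CD3E- CD2+ cells it was 8.80-fold lower than in blood (-3.14 ± 0.82; adjusted p = 0.00852 in edgeR), with an adjusted p of 0.0604 and a difference of -2.55 without the library labelled WholeIleum1. Its differences in the 4 T cell gates ran from -1.56 to 0.06 and none was called. That in CD3E+ TRDC+ CD2+ cells was called in edgeR with the pig as a block (-1.41; adjusted p = 0.0314) and with no filter on low counts (-1.54; adjusted p = 0.00442). It was also called with sums per library (-1.51; adjusted p = 0.0338 in edgeR), which count the dissections of a pig as replicates. Only these 3 of 11 alternatives called it, and over all of them the difference ran from -2.01 to -0.46.

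GNLY was not called in any gate in this edgeR fit. Its difference in CD3E+ CD8B+ cells, 3.94-fold lower in ileum and lower in both pigs, was -1.98 ± 0.62 (adjusted p = 0.0519 in edgeR), and with the pig as a block -2.02 (adjusted p = 0.0173 in edgeR). It was also called lower by DESeq2 (-1.99; adjusted p = 0.0111) and in edgeR with no filter (-1.97; adjusted p = 3.56e-06). Sums per library, which count the dissections of a pig as replicates, called it too (-2.20; adjusted p = 0.0428 in edgeR). Only these 4 of 11 alternatives, the block among them, called it, and over all of them the difference ran from -2.26 to -1.65. In CD3E+ CD8B- TRDC- cells it was called with no filter (-0.88; adjusted p = 0.0455 in edgeR). In CD3E+ CD8B+ cells the pig block took the members called from 1 to 3, and the calls over all genes from 1225 to 1952. In CD3E+ TRDC+ CD2+ cells GNLY held 5097 and 6451 CPM in ileum and 8662 and 3335 CPM in blood, so the blood values straddled the ileal ones. The difference was -0.01 (adjusted p = 1 in edgeR). In CD3E+ TRDC+ CD2- cells blood held 3843 CPM in pig 1 and 541 CPM in pig 2, the latter near the 432 CPM of that library's CD79B+ cells.

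**Figure D2:**
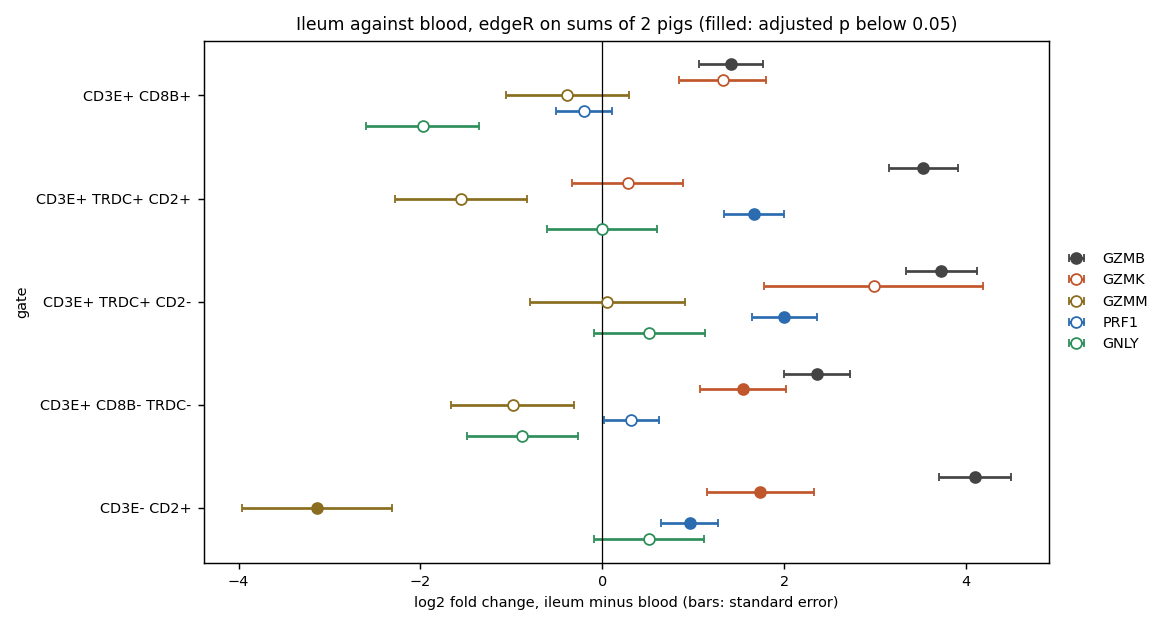
Log2 difference of ileum minus blood with its standard error for each member, by gate. Filled points passed an adjusted p of 0.05 in edgeR: GZMB in 5 gates, PRF1 in 3, GZMK in 2 and GZMM in 1, the last to the left of 0, while GNLY passed in none in this fit.

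A level can differ because more cells hold the transcript or because each cell holds more of it. To compare both at equal depth, each cell was thinned at random to the lowest depth that a kept cell could have. GZMB was detected in 84.9% of ileal CD3E+ CD8B+ cells in pig 1 and 89.7% in pig 2, and in 72.1% and 94.5% of those in blood. These shares overlapped, while the UMIs per positive cell did not, at 16.5 and 16.0 in ileum and 4.61 and 7.72 in blood. Cells with at least 10 GZMB UMIs made up 49.9% and 50.8% in ileum and 8.22% and 28.3% in blood. Before thinning the shares with a UMI were 93.3% and 96.0% in ileum and 90.0% and 97.8% in blood.

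Both quantities differed for GZMB in CD3E- CD2+ cells. Detection was 71.4% and 80.1% in ileum and 63.8% and 49.5% in blood, and positive cells held 31.2 and 35.5 UMIs against 3.50 and 3.28. Cells with at least 10 UMIs made up 53.6% and 68.1% in ileum and 1.37% and 1.00% in blood. In CD3E+ TRDC+ CD2+ cells detection was 67.2% in both pigs in ileum and 50% and 32.0% in blood, with 16.3 and 15.9 UMIs per positive cell against 2.64 and 2.23. The CD79B+ cells set the background, with a UMI in 15.5% and 14.7% in ileum and 4.54% and 6.68% in blood and no more than 1.45 UMIs per positive cell. GZMB detection in blood CD3E+ TRDC+ CD2- cells, 23.0% and 14.8%, was above that of the CD79B+ cells in blood.

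GNLY in CD3E+ CD8B+ cells went the other way in both quantities. It was detected in 42.8% and 47.4% of cells in ileum and 67.6% and 67.2% in blood, with 9.91 and 7.44 UMIs per positive cell against 23.6 and 28.0. The tissues overlapped for GNLY in CD3E- CD2+ cells in detection, at 64.1% and 75.3% in ileum and 76.2% and 64.3% in blood, and in amount, at 46.8 and 52.6 UMIs per positive cell against 44.5 and 49.4. Its background was higher than that of GZMB, with a UMI in 33.2% and 29.0% of blood CD79B+ cells. The GNLY share of blood CD3E+ TRDC+ CD2- cells in pig 2, 35.2% at 2.09 UMIs per positive cell, was close to that background and is read as no more than background.

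The sparse members were detected in fewer cells. PRF1 was found in 29.8% and 36.0% of ileal CD3E- CD2+ cells and in 26.1% and 24.5% of those in blood. GZMK was found in 19.3% and 26.5% of ileal CD3E+ CD8B+ cells and in 8.90% and 8.58% of those in blood. GZMM was found in 2.88% and 0.413% of ileal CD3E- CD2+ cells and in 18.3% and 8.68% of those in blood. In the gate shown for each of these members the tissues did not overlap, and such separation was not counted over other genes. PRF1 levels overlapped in CD3E+ CD8B+ cells, as given above. Shares without the library labelled WholeIleum1 were not computed.

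**Figure D3:**
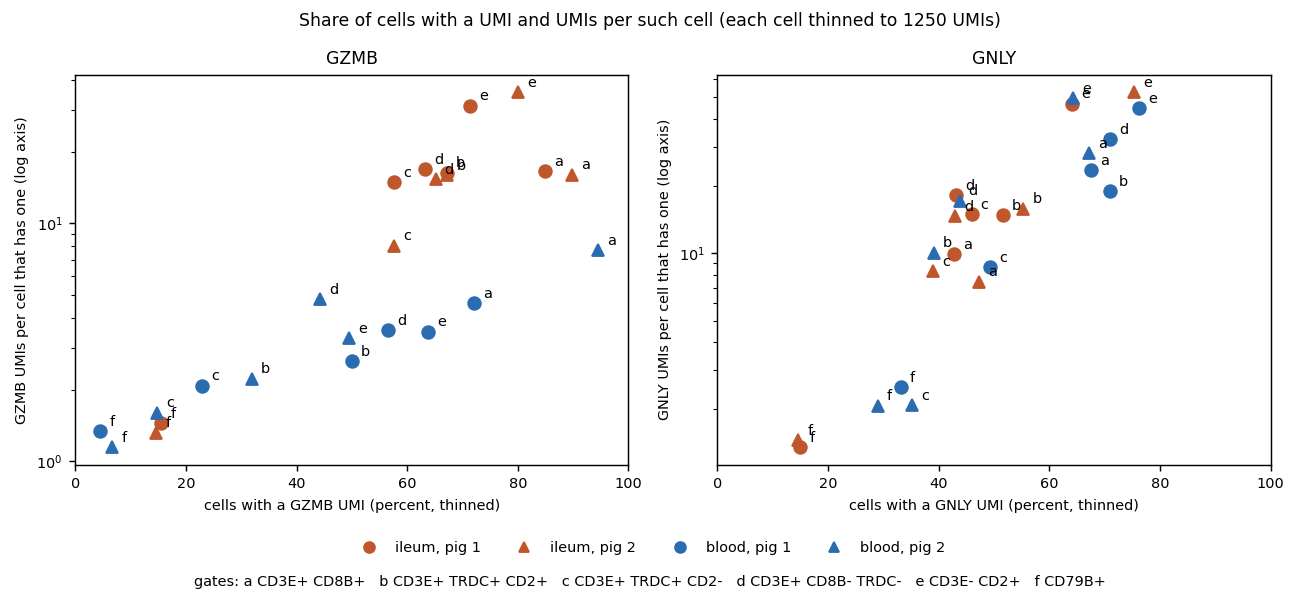
Percent of cells with a UMI of GZMB or GNLY after thinning to equal depth against the mean UMIs per positive cell on a log axis, with 1 point per gate, pig and tissue. For GZMB, ileal CD3E- CD2+ cells stand apart at 31.2 and 35.5 UMIs per positive cell while blood stays at or under 7.72 in all gates.

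The proportions of the members within a gate differed by tissue as well. Of all UMIs of the 5 members in CD3E+ CD8B+ cells, GZMB made up 74.2% and 75.4% in ileum and 18.0% and 28.6% in blood, and GNLY made up 22.3% and 20.1% in ileum and 78.7% and 68.7% in blood. GZMB in CD3E- CD2+ cells made up 42.4% and 41.9% in ileum and 6.49% and 4.74% in blood, and GNLY 56.6% and 57.3% in ileum and 91.9% and 93.9% in blood. The tissues did not overlap in either gate for either gene. With the library labelled WholeIleum1 kept, the GNLY level itself in CD3E- CD2+ cells was not lower in ileum (20174 and 28096 CPM against 17437 and 14247 CPM). In pig 1 this rested on that library, since PP1 and NoPP1, given with the dissections below, each lay below the blood value. The GZMB level was higher in ileum. Together the 5 members took 3.56% and 4.90% of all UMIs of ileal CD3E- CD2+ cells and 1.90% and 1.52% in blood. The library labelled WholeIleum1 held 447 of the 728 ileal cells behind pig 1's 3.56%. That share was not computed without it, so the order of the tissues in pig 1 is not known apart from that library.

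**Figure D4:**
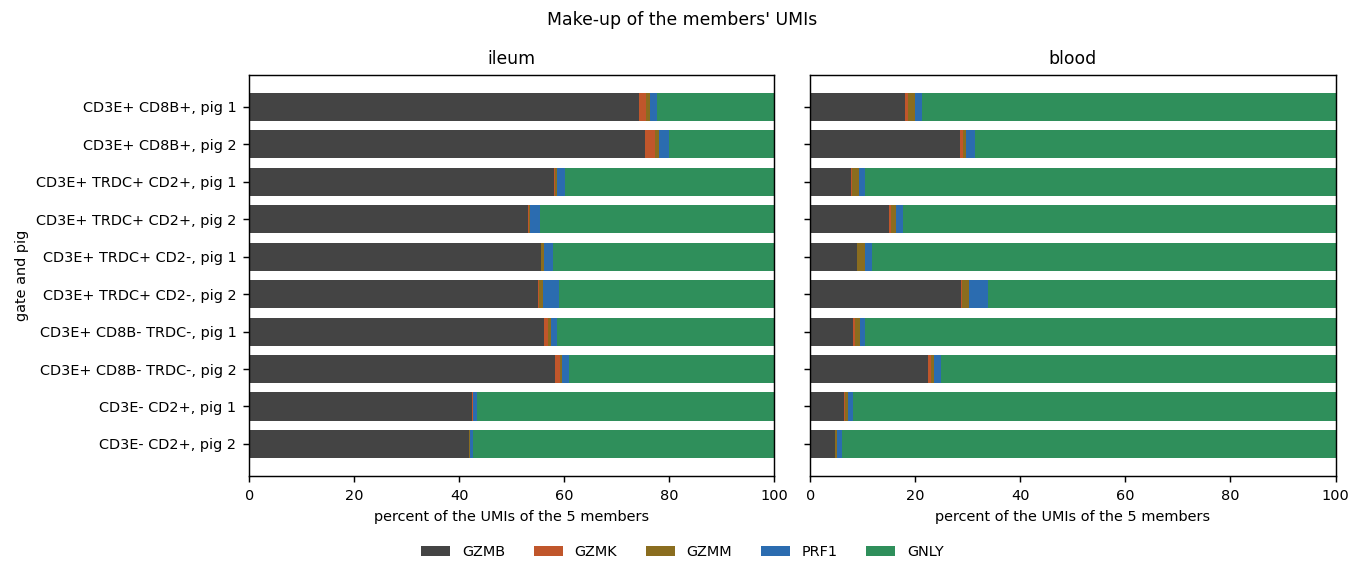
Percent of the summed UMIs of GZMB, GZMK, GZMM, PRF1 and GNLY contributed by each, stacked to the whole, for each gate, tissue and pig. GZMB is the larger part in ileal CD3E+ CD8B+ cells (74.2% and 75.4%) and GNLY in those of blood (78.7% and 68.7%).

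The gates were next compared with each other within a tissue. In ileum, CD3E- CD2+ cells against CD3E+ CD8B+ cells had 3 of the 5 members called, where 9.07% of all genes were. GZMK was 7.50-fold lower (-2.91 ± 0.52; adjusted p = 0.00293 in edgeR), GZMM 10.4-fold lower (-3.38 ± 0.82; adjusted p = 0.0175 in edgeR) and GNLY 8.19-fold higher (3.03 ± 0.65; adjusted p = 0.00923 in edgeR). Without the library labelled WholeIleum1 the GZMK call held (-2.70; adjusted p = 0.0237 in edgeR). Those of GZMM (-2.84; adjusted p = 0.103 in edgeR) and GNLY (2.55; adjusted p = 0.0697 in edgeR) were lost. With pig 1 alone the GZMK call was lost too (-2.27; adjusted p = 0.13 in edgeR).

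CD3E+ TRDC+ CD2+ cells of ileum differed from CD3E+ CD8B+ cells in 1 member, where 0.858% of all genes were called. GZMK was at 21.6 and 16.6 CPM in the former and 11.4-fold lower (-3.51 ± 0.52; adjusted p = 0.00432 in edgeR). It held without the library labelled WholeIleum1 (-3.45; adjusted p = 0.021 in edgeR) and was lost when either pig was left out (adjusted p = 0.14 and 0.597 in edgeR). With the pig as a block GZMM was called as well, at -1.79 (adjusted p = 0.0264 in edgeR). The 2 ileal γδ gates, CD2+ against CD2-, had 0 members called in edgeR, where 0.212% of all genes were. One member had an unadjusted p under 0.05 and DESeq2 called 0.

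In blood, CD3E- CD2+ cells against CD3E+ CD8B+ cells had 2 members called, where 19.9% of all genes were. GZMB was 3.74-fold lower (-1.90 ± 0.36; adjusted p = 0.00176 in edgeR) and GZMK 9.97-fold lower (-3.32 ± 0.57; adjusted p = 0.00105 in edgeR). The GZMK call held in every alternative run, while that of GZMB was lost with pig 1 alone (-0.84; adjusted p = 0.251 in edgeR). Blood CD3E+ TRDC+ CD2+ cells also held less GZMB than CD3E+ CD8B+ cells, 5.63-fold (-2.49 ± 0.37; adjusted p = 0.00745 in edgeR), the 1 member called where 0.101% of all genes were. This too was lost with pig 1 alone (-1.58; adjusted p = 1 in edgeR). Between the γδ gates of blood 0 members were called in edgeR, where 1.28% of all genes were, with 4 at an unadjusted p under 0.05 and 0 called by DESeq2.

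The ileum minus blood difference was itself compared between gates. For GZMB it was larger in CD3E- CD2+ cells than in CD3E+ CD8B+ cells by 2.68 ± 0.50 on the log2 scale (adjusted p = 0.0164 in edgeR), the 1 member called where 1.54% of all genes were. It was 2.33 without the library labelled WholeIleum1 (adjusted p = 0.135 in edgeR) and 1.34 with pig 1 alone (adjusted p = 0.785 in edgeR). The corresponding value was 2.49 for GNLY (adjusted p = 0.181 in edgeR) and -2.75 for GZMM (adjusted p = 0.23 in edgeR). With the pig as a block GZMM was called too (-2.81; adjusted p = 0.0199 in edgeR). Between CD3E+ TRDC+ CD2+ and CD3E+ CD8B+ cells 0 members were called in edgeR, where 0% of all genes were, with 3 at an unadjusted p under 0.05 and 0 called by DESeq2.

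Ileum with and without Peyer's patches was compared per library in 3 gates, over 8631 genes. In CD3E- CD2+ cells GZMB was at 3159 CPM in PP1 and 8356 CPM in PP2, and at 11326 CPM in NoPP1 and 26483 CPM in NoPP2. GNLY was at 4157 and 9650 CPM in PP and 13795 and 36285 CPM in NoPP, and PRF1 at 75.8 and 167 CPM in PP and 200 and 466 CPM in NoPP. For each gene both PP libraries lay below both NoPP libraries, and pig 2 lay above pig 1 in both dissections. None of the 5 was called in edgeR, where 1.45% of all genes were, with GZMB at -1.58 ± 0.47 (adjusted p = 0.116), GNLY at -1.73 ± 0.51 (adjusted p = 0.116) and PRF1 at -1.32 ± 0.48 (adjusted p = 0.207). Those 3 had an unadjusted p under 0.05, DESeq2 called 2 members, edgeR with no filter called GZMB and GNLY (-1.63 and -1.77, with adjusted p = 0.00434 and 0.00394), and with the pig as a block edgeR called 3 (-1.60, -1.73 and -1.31, with adjusted p = 0.0258, 0.0262 and 0.0141). Calls over all genes rose as well, from 125 in the reported fit to 303 with the block. In the library labelled WholeIleum1 the CD3E- CD2+ cells held 20282 CPM of GZMB and in WholeIleum2 12910 CPM.

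The cells in this gate differed by dissection too. Group 3 ILC markers were at 2812 CPM in PP1 and 1988 CPM in PP2, against 572 CPM in NoPP1 and 229 CPM in NoPP2. Monocyte and macrophage markers were at 3044 and 3670 CPM in PP and 430 and 416 CPM in NoPP, and antibody-secreting cell markers at 3915 and 9513 CPM against 252 and 1282 CPM. T cell markers were at 1069 and 1597 CPM in PP and 1730 and 3422 CPM in NoPP, and the 5 naive markers at 367 and 299 CPM against 139 and 68.6 CPM. The part of these other cells in the dissection values was not tested.

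In CD3E+ CD8B+ cells GNLY was at 1640 and 1336 CPM in PP and 3826 and 3879 CPM in NoPP, a difference of -1.26 ± 0.50 (adjusted p = 1 in edgeR). Here 0 members were called, where 0% of all genes were, with 1 at an unadjusted p under 0.05 and 0 called by DESeq2. In CD3E+ TRDC+ CD2+ cells GZMB was at 3768 and 3790 CPM in PP and 9083 and 9912 CPM in NoPP, and 0 members were called in edgeR, where 0.0463% of all genes were. An unadjusted p under 0.05 was reached by 2 members, GZMB and GNLY, and DESeq2 called 0. The naive markers moved with dissection here too. In CD3E+ TRDC+ CD2+ cells they were at 328 and 313 CPM in PP and 156 and 194 CPM in NoPP. In CD3E+ CD8B+ cells they were at 236 and 332 CPM against 116 and 165 CPM. The part of these cell states in the dissection values was not tested.

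**Figure D5:**
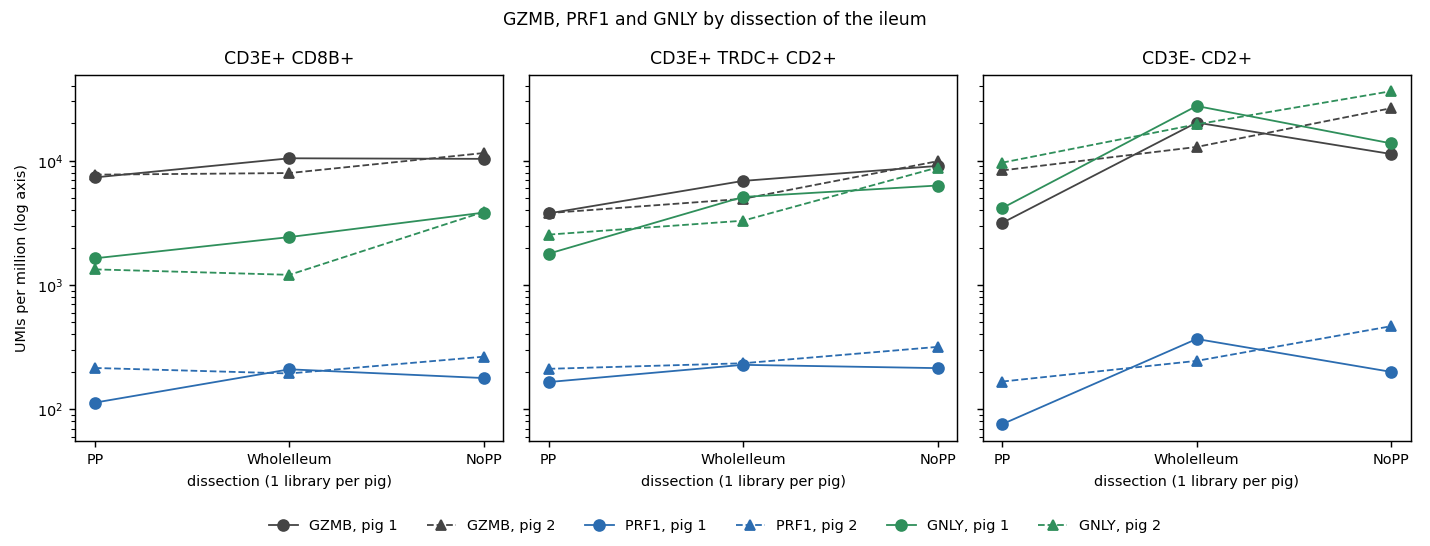
Levels of GZMB, PRF1 and GNLY in CPM on a log axis for each of the 6 ileal libraries, in 3 gates. In CD3E- CD2+ cells the PP libraries (GZMB 3159 and 8356 CPM) lie below the NoPP libraries (11326 and 26483 CPM), and no member was called in edgeR with low counts filtered and no block.

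Free RNA moved with the dissection, and its GZMB level was higher in every ileal library than in blood. In barcodes of 1 to 100 UMIs, taken as droplets with no cell, GZMB was at 2257 CPM in PP1 and 3475 CPM in PP2, at 9739 CPM in NoPP1 and 17702 CPM in NoPP2, and at 1337 and 1687 CPM in blood. GNLY there was at 2097 and 2958 CPM in PP, at 13558 and 24740 CPM in NoPP, and at 10564 and 8227 CPM in blood. In each library the free RNA was richer in GZMB than the average cell, at 9739 against 9012 CPM in NoPP1 and 17702 against 13652 CPM in NoPP2. The levels in CD79B+ cells, given above, were at most 147 CPM for GZMB and 486 CPM for GNLY per pig and tissue. Those sums are weighted to PP and WholeIleum, since NoPP held 26 and 43 CD79B+ cells. The part of free RNA in the dissection values and in the ileum minus blood values was not tested.

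Within single CD3E- CD2+ cells GNLY and PRF1 were found more often where GZMB was, while GZMK and GZMM varied by pair. Ileal cells of each pig were pooled over its dissections, between which member levels, free RNA and the other cells of this gate differed. The part of these in the shares was not tested. Among ileal CD3E- CD2+ cells with a thinned GZMB UMI, GNLY was found in 80.8% in pig 1 and 89.5% in pig 2, against 22.6% and 18.3% of the rest. PRF1 was found in 39.2% and 43.0% of the same cells against 6.25% and 7.88% of the rest. In blood GNLY was found in 94.7% and 92.9% of GZMB-positive cells and 43.5% and 36.4% of the rest. GZMK was paired less with GNLY in this gate. Of the 42 and 28 ileal CD3E- CD2+ cells with GZMK, 38.1% and 46.4% held GNLY, against 65.7% and 76.0% of those without it. GZMB was found in 88.1% and 82.1% of the GZMK-positive cells and in 70.4% and 80.0% of the rest. In ileal CD3E+ CD8B+ cells GZMK was found in 21.5% and 28.3% of GZMB-positive cells and 7.08% and 10.6% of the rest.

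In ileal CD3E+ CD8B+ cells GZMM was found in 131 of 1188 GZMB-positive cells in pig 1 and 97 of 989 in pig 2, and in 13.7% and 15.9% of the rest. It was found in 9.18% and 7.28% of GNLY-positive cells and in 13.1% and 13.3% of the rest, lower in both pigs. In blood CD3E- CD2+ cells it was found in 23.9% and 15.7% of GZMB-positive cells and in 8.44% and 1.85% of the rest. In ileal CD3E- CD2+ cells the shares were 3.46% and 0.310% against 1.44% and 0.830%, from 21 and 5 cells with GZMM, too few to read a direction. Cells with at least 3 of the 5 members made up 24.4% and 29.2% of ileal CD3E+ CD8B+ cells and 27.6% and 36.1% of those in blood. They made up 14.9% and 18.5% of CD3E+ TRDC+ CD2+ cells in ileum and 18.2% and 3.61% in blood, where pig 2 was far below pig 1. These shares describe cells of 2 pigs and carry no test.

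GZMA, a tryptase that is stored in the same granules, is no member but neighbours GZMK. Its entry ENSSSCG00000016903 was the one that followed GZMB most closely. The entry ENSSSCG00000016902 stood at 9615 and 14004 CPM in ileal CD3E- CD2+ cells and at 15.2 and 9.01 CPM in those of blood. It was higher in ileum in all 5 gates, by 3.68 to 9.89 on the log2 scale, and was called in each under every alternative run. The entry ENSSSCG00000016903 stood at 4032 and 5126 CPM against 574 and 378 CPM in the same cells and was called in 3 gates. How reads were divided between these neighbouring entries is not known, so each value is uncertain.

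Granule machinery genes were called in both directions. Of 25 listed genes that load, move or release granules or act beside them, all were tested. In CD3E+ CD8B+ cells 1 was higher and 4 were lower in ileum, with a median log2 difference of -0.31. The counts were 2 and 3 in CD3E+ TRDC+ CD2+ cells (median 0.15), 1 and 2 in CD3E+ TRDC+ CD2- (0.12), 3 and 2 in CD3E+ CD8B- TRDC- (-0.04) and 3 and 9 in CD3E- CD2+ cells (-0.02). These counts stand beside 11.3%, 14.6%, 11.6%, 21.4% and 31.4% of all genes called in the same gates. The 3 of 25 and 5 of 25 in CD3E+ TRDC+ CD2- and CD3E+ CD8B- TRDC- cells are near the background. Whether the counts in the other gates exceed it was not tested, so no count is read as a result about these genes. Values for these genes are given with the library labelled WholeIleum1 kept. The medians over all genes tested ran from 0.03 to 0.07. TNFSF10, the TRAIL death ligand, fell in ileum in 4 gates, by 1.37 on the log2 scale in CD3E+ CD8B+ cells, 1.18 in CD3E+ TRDC+ CD2+, 1.57 in CD3E+ CD8B- TRDC- and 1.44 in CD3E- CD2+ cells. LYST, which regulates the size of lysosomes, was lower in 4 gates, by -2.17 in CD3E+ TRDC+ CD2+ cells, -1.69 in CD3E+ TRDC+ CD2-, -0.98 in CD3E+ CD8B- TRDC- and -1.92 in CD3E- CD2+ cells. SRGN, the proteoglycan that packs granzymes, rose by 1.05 in CD3E+ CD8B+ and 1.20 in CD3E+ CD8B- TRDC- cells. CTSC, which activates granzymes by trimming them, rose by 0.90 in CD3E+ TRDC+ CD2- cells and by 0.78 in CD3E+ CD8B- TRDC- cells. SYTL3, a granule docking factor, fell by 2.04 in CD3E+ TRDC+ CD2- cells and rose by 1.71 in CD3E- CD2+ cells.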

How the data were processed

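Droplet 3' libraries (10x Genomics) of ileal and blood cells were aligned and counted by the authors with Cell Ranger (4.0.6 per the submitters' processing notes) against Sus scrofa 11.1. The deposited matrices hold raw UMI counts for all barcodes, before the authors removed free RNA, cells or doublets. How the counting treated near-identical genes is not given in the sources used here.

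Barcodes with at least 1250 UMIs, at least 550 genes and at most 12.5% mitochondrial UMIs were kept as cells. Scrublet, in scanpy 1.11.5, was run with an expected rate of 0.07 and a score of 0.25. Counts were summed per pig, tissue and gate (24 sums) and tested in edgeR 4.0.16 (R 4.3.3) with filterByExpr, TMM and quasi-likelihood tests, 1 fit over all sums, with Benjamini-Hochberg adjustment. PP and NoPP were fitted separately on library sums. DESeq2 1.42.0 was an alternative, as were another scaling, filter, depth minimum, pairing and sets of libraries. A further alternative, sums per library, took the dissections of a pig as separate replicates with no pig term. Its p-values therefore treat dissections of the same animal as independent. The scripts were tested on simulated data. For ileum minus blood in CD3E+ CD8B+ cells, 18.8% of simulated log2 differences of size 1 and 76.5% of those of size 2 were recovered. For PP minus NoPP in these cells the shares were 10.2% and 66.7%. A member that was not called is therefore not shown to be equal.

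Ileum and blood come from the same pigs. Deviations of same-numbered sums from their group means correlated at 0.0649 to 0.275 between ileum and blood and at 0.257 to 0.438 between PP and NoPP, so a pig block is also given. Each p-value rests on a spread estimated over all sums of its fit, with gates of the same pig among them, and moderated over all genes. It does not measure the spread between the 2 pigs within the gate compared. Small p-values therefore do not stand for more than 2 animals.

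Members, gates and lists were chosen with earlier results of these data known. Named genes were the members, GZMA by identifier, up to 4 called pathway genes with the largest difference per gate, and the 2 genes most like each member. Sequencing runs count once. No sequences were printed. Marker lists are given where they moved with a result, and 1 gene of the naive list is not reported here.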

Additional observations from a re-analysis of the deposited data

Results flagged for a closer look

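The ileum minus blood difference of GZMB was larger in CD3E- CD2+ cells than in CD3E+ CD8B+ cells by 2.68 on the log2 scale, in a tested interaction described above. For GNLY the direction of ileum minus blood was the same in both pigs within 4 gates, CD3E+ TRDC+ CD2+ excepted, but opposite between some of these, on TMM-scaled counts, and these contrasts were not tested. In CD3E+ TRDC+ CD2- cells pig 1 was higher in ileum by only 0.02 on that scale, and in plain CPM lower (3761 against 3843 CPM). In CD3E- CD2+ cells pig 1 was higher in ileum with the library labelled WholeIleum1 kept, while PP1 and NoPP1 were each lower than blood in plain CPM. The differences were 2.50 for CD3E+ TRDC+ CD2- less CD3E+ CD8B+ cells, -1.40 for CD3E+ CD8B- TRDC- less CD3E+ TRDC+ CD2- cells and 1.39 for CD3E- CD2+ less CD3E+ CD8B- TRDC- cells. On the same scale GZMK lay on one side in both pigs for PP minus NoPP in CD3E+ CD8B+ cells and on the other in CD3E+ TRDC+ CD2+ cells, a gap of -0.36 that was not tested. In plain CPM the CD3E+ CD8B+ cells held 139 and 236 CPM in PP and 139 and 267 CPM in NoPP. Y-linked UMIs lay outside the comparisons and were found in 45.6% of cells of the library labelled WholeIleum1.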

How the results depend on the processing

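With 2 pigs, 19 of 80 member differences were called, where 0% to 31.4% of all genes were, depending on the comparison. The alternatives used counts of the same 2 pigs, and directions kept were not counted over all genes. All 19 kept their direction in every alternative, and 5 were called in every one: GZMB in ileum against blood in 4 gates, CD3E+ CD8B+ excepted, and GZMK in blood CD3E- CD2+ against CD3E+ CD8B+ cells. Of 805 repeats 696 kept direction and side of the threshold, 42 gained a call, 42 lost one and 25 turned in sign. For the calls lost in some alternative, the highest adjusted p over all of them was 0.306 for GZMB in CD3E+ CD8B+ cells, 0.148 and 0.11 for PRF1 in the γδ gates, 0.327 for GZMK in CD3E+ CD8B- TRDC- cells and, in CD3E- CD2+ cells, 0.425 for GZMK, 0.0915 for GZMM and 0.393 for PRF1. Between gates of ileum it was 0.13 and 0.597 for GZMK, 0.228 for GZMM and 0.201 for GNLY, and for GZMB 0.251 and 1 in blood and 0.785 for the interaction. Over all genes, ileum minus blood calls ran from 251 to 1952 in CD3E+ CD8B+ cells (1225 in the reported fit), 379 to 2278 and 327 to 1608 in the γδ gates (1578 and 1262), 648 to 3358 in CD3E+ CD8B- TRDC- cells (2324) and 1023 to 4213 in CD3E- CD2+ cells (3406). Depth limits the shares of cells with a sparse member, as the unthinned values show. The cause of a change was not tested unless the alternative held fewer samples.

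Counts of members called moved with the setting, and so did those over all genes. With no filter the latter rose from 23 to 254 and from 139 to 410 between the γδ gates of ileum and blood. With the block they rose from 1225 to 1952 for ileum minus blood in CD3E+ CD8B+ cells. For the CD3E- CD2+ interaction they rose from 167 to 470. The counts of members below are therefore not read as a result about the members. With no filter on low counts they were 3 for ileum minus blood in CD3E+ CD8B+ cells, 2 for CD3E+ TRDC+ CD2+ minus CD3E+ CD8B+ cells in ileum and 3 in blood, 1 and 3 between the γδ gates of ileum and blood, 4 and 3 for the 2 interactions, and 1 and 2 for PP minus NoPP in CD3E+ TRDC+ CD2+ and CD3E- CD2+ cells. With the pig as a replicate block, which used the pairing by animal, they were 3, 2, 2 and 3 for ileum minus blood in CD3E+ CD8B+ cells, CD3E+ TRDC+ CD2+ minus CD3E+ CD8B+ cells in ileum, the interaction of CD3E- CD2+ cells, and PP minus NoPP in CD3E- CD2+ cells. The block also gained GZMM in CD3E+ TRDC+ CD2+ cells and lost no call. Without the library labelled WholeIleum1, and with PP and NoPP alone, they were 0 in CD3E+ CD8B+ cells, 1 in CD3E+ CD8B- TRDC-, 1 in CD3E- CD2+, 1 between the latter and CD3E+ CD8B+ cells in ileum, and 0 for their interaction. With sums per library they were 2, 2, 1, 0 and 0 for ileum minus blood in CD3E+ CD8B+ cells, their contrast with γδ CD2+ cells in ileum, that with CD3E- CD2+ and then with γδ CD2+ cells in blood, and the CD3E- CD2+ interaction. DESeq2 called 2 in CD3E+ CD8B+ cells and 3 in CD3E+ TRDC+ CD2- cells for ileum minus blood. It called 3 between γδ CD2+ and CD8B+ cells of blood and 2 for PP minus NoPP in CD3E- CD2+ cells. Smaller moves with no filter gave 3 for ileum minus blood in both γδ gates and in CD3E+ CD8B- TRDC- cells. They gave 4 between CD3E- CD2+ and CD3E+ CD8B+ cells of ileum. Cells of at least 2500 UMIs gave 1 in CD3E+ CD8B- TRDC- cells. With 1 pig left out, the counts ran from 0 to 1 in CD3E+ CD8B+, 1 to 2 in each γδ gate, 1 to 1 in CD3E+ CD8B- TRDC- and 1 to 3 in CD3E- CD2+ cells. Between gates they ran from 0 to 1 and 0 to 0 in ileum, 1 to 2 and 0 to 2 in blood, and 0 to 1 for the interaction. A lone pig is then assumed to vary like the other sums.

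Without thinning, mean shares of cells with a UMI in CD3E+ CD8B+ cells were 94.6% for GZMB in ileum, 38.5% and 24.6% for GZMK in ileum and blood, 24.6% and 41.2% for GZMM, and 58.3% for PRF1 in blood. In CD3E- CD2+ cells they were 48.8% for PRF1 in ileum and 89.9% for GNLY in blood.

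The differences that turned in sign were uncalled. Pig ranges below run over leaving out each pig. For ileum minus blood in CD3E+ CD8B+ cells, ENSSSCG00000016903 was -0.013 with at least 2500 UMIs, with a pig range of -0.33 to 0.89, and the pig ranges were -0.65 to 0.0044 for GZMM and -0.40 to 0.17 for PRF1. In γδ CD2+ cells GNLY was 0.015 with no filter, 0.12 with the block, 0.085 without doublets and 0.0605 with PP and NoPP alone, with a pig range of -0.72 to 1.02. In γδ CD2- cells GZMM was -0.59 at 2500 UMIs and -0.16 with PP and NoPP alone (pig range -0.86 to 1.99), and GNLY -0.44 at 2500 UMIs (pig range -0.021 to 2.11). The pig range of PRF1 in CD3E+ CD8B- TRDC- cells was -0.085 to 0.62. GNLY was -0.029 between blood CD3E- CD2+ and CD3E+ CD8B+ cells at 2500 UMIs, and the GZMK interaction -0.16 there (pig range -0.11 to 1.47). For PP minus NoPP, GZMK in CD3E+ CD8B+ cells was -0.0385 with DESeq2's scaling, -0.0377 with DESeq2, -0.054 with no filter and -0.022 at 2500 UMIs (pig range -0.0394 to -0.0186). CD3E- CD2+ cells had GZMM at 0.084 at 2500 UMIs (pig range -1.81 to 2.15) and a GZMK pig range of -2.04 to 1.05.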
